A study of Mus musculus with 8 samples.

Results

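The early growth response (EGR) transcription factors, their NAB corepressors and the upstream factor Srf were followed through the transcriptomes of bone marrow-derived mast cells (BMMCs). The set held 6 genes, Egr1, Egr2, Egr3, Nab1, Nab2 and Srf, taken by symbol out of the 56748 gene IDs of the count tables, and each of the 6 was among the 14942 genes with enough counts to be tested. Egr4, the remaining EGR gene, had too few counts and is given beside them. The genes were selected on their family and with their paired differences between the groups in view, so those differences are a description, and counts of calls among them stand beside the share of all genes with nothing read from them. The BMMCs came from C57BL/6 mice aged 6 to 8 weeks, were grown from whole bone marrow in IL-3 for at least 4 weeks and were left unstimulated. The 4 Mettl3-RNP libraries (genotype label Mettl3 KO) came from cells electroporated with Cas9 ribonucleoproteins (RNPs) carrying guide RNAs against Mettl3, the enzyme that methylates adenosines of mRNA. The 4 Pulsed libraries (genotype label Mettl3 WT) came from mock-transfected cells, which carried no RNP. By the study's account the Mettl3-RNP cultures kept some untargeted cells, so each such library also held RNA of cells with an intact gene. Replicate numbers 1 to 4 are shared by both groups, and each is taken as 1 mouse because the series names 4 mice.

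EGR proteins bind GC-rich DNA through zinc fingers and belong to the immediate early genes, which are switched on within minutes of a stimulus without new protein synthesis. In mast cells, engagement of the IgE receptor or of Kit activates the kinase ERK, which phosphorylates ternary complex factors such as Elk1. These sit with the serum response factor SRF on CArG boxes in the promoters of EGR and FOS genes. NAB1 and NAB2 bind EGR1, EGR2 and EGR3 and repress their activity, and NAB2 is itself induced by EGR proteins, which closes a negative feedback loop.

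Promoter sequences are shown because the 6 transcripts form a chain of regulators and targets, in which a CArG box or an EGR motif may stand at each step. The RefSeq promoter table (build GRCm38.p6, 250 bases before to 50 after a start site) held 4 of the 6 genes, Egr2, Nab1, Nab2 and Srf. Each sequence was found at 1 place of GRCm39 by exact match, and positions are given in that build. The stretches of Srf (chr17:46867120-46867238, minus strand) and of Egr2 (chr10:67373592-67373691, plus strand) hold no annotated exon. The Nab1 stretch (chr1:52539697-52539726, minus strand) lies in an annotated exon of Nab1. All are written 5′ to 3′, and capitals mark CArG boxes and EGR motifs.
Srf: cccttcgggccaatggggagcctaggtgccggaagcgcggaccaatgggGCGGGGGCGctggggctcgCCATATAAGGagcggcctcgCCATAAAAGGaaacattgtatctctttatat
Egr2: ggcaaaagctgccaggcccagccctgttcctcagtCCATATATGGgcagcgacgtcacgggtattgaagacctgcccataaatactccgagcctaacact
Nab1: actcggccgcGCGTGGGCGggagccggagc

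Both strands of the promoters were searched for the CArG box, for the EGR motifs GCGTGGGCG and GCGGGGGCG and for TGACG, the core of cAMP response elements, and motifs that read the same on both strands were counted once. Srf held 2 CArG boxes, which start 82 and 62 bases before its start site, and 1 GCGGGGGCG. The windows of 4 of the 5 annotated start sites of Egr2 held a CArG box, but 3 of these windows overlap and share the box printed above, so that there are 2 different boxes. Of all 32851 promoters, 1.63% held a CArG box. The box printed for Egr2 starts 72 bases before that start site, between 2 copies of TGACG on opposite strands, the first of which starts just before the printed stretch. This motif was present in 20.8% of promoters, and Srf held 1 further upstream and Nab1 held 1 on the opposite strand. Nab1 held GCGTGGGCG on each strand, a motif of 0.612% of promoters, and 1 GCGGGGGCG, which 2.91% of promoters held. None of these letters stood in the Nab2 window, whose 150 bases before the start site (chr10:127502572) all lie in an annotated exon of Nab2. The gene itself begins at 127504458 on the minus strand, so the sequence before that end was not searched. A match describes the sequence and does not show that a factor was bound in these cells.

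The libraries totalled 32643260 to 45324826 counts. Mettl3 was lower in 4 of 4 pairs, with a log2 fold change of -1.30 (SE 0.109). Its level was 40.9% ± 5.81 (SD, n = 4) of that in the Pulsed partner. Exons of Tox4 on the opposite strand overlap 2308 of the 6765 exon bases of Mettl3, so its counts may include reads of Tox4. Both libraries of replicate 3 had the lowest Mettl3 of their group, 4.88 CPM in Mettl3-RNP and 11.2 CPM in Pulsed cells, where CPM is the count scaled to a library of 1000000 counts after TMM scaling. The TMM factors of these 2 libraries were also the lowest, 0.917 and 0.889. Transcripts of mast cells were abundant in each library, with 3070 to 5040 CPM of Kit, 2390 to 3210 CPM of Fcer1a and 16700 to 37200 CPM of Cpa3. A gene was called at an adjusted p of at most 0.05 and at least a 1.5-fold difference. None of the 10 mast cell markers was called, 6 were fitted higher and 4 lower, and 1 passed the adjusted p alone, Cpa3 (log2 fold change -0.37, SE 0.0699, adjusted p = 0.0328 in edgeR). The 6 macrophage markers summed to 0.827 to 3.57 CPM, and the 5 neutrophil markers to at most 0.373 CPM with S100a8, S100a9 and Elane at 0 counts in each library. The 4 lymphocyte and 3 fibroblast markers reached at most 1.83 and 1.96 CPM. Of 4 basophil markers, Cd200r3 (499 to 819 CPM) and Il18rap (22.7 to 64.5 CPM) were measurable, while the protease genes Mcpt8 and Prss34 that define these cells stayed at or under 4.03 and 1.74 CPM. Il18rap fell in Mettl3-RNP cells (-0.79, SE 0.144, adjusted p = 0.0324 in edgeR), while Cd200r3 was higher in 4 of 4 pairs without passing (0.25, SE 0.09). The low Mcpt8 and Prss34 were lower in 4 of 4 pairs without passing (-0.42 and -0.68). Adgre1, the 1 tested macrophage marker, fell too (-1.13, adjusted p = 0.0435 in edgeR), where 2.06% of all tested genes were called, and the part of such cells in the levels given here was not tested. In bulk RNA, more cells that express a gene and more RNA per cell cannot be told apart.

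Egr1 (ENSMUSG00000038418, chr18:34992876-34998049, plus strand, GRCm39) encodes the founding member of the family and was by far the most abundant of its transcripts. In Pulsed cells it stood at 960 CPM in replicate 1, 1286 in replicate 2, 8655 in replicate 3 and 26.3 in replicate 4. In Mettl3-RNP cells the levels were 1000, 2393, 10690 and 120 CPM in the same order, and the group means were 2732 ± 3985 and 3552 ± 4853 CPM (SD, n = 4). The levels followed the same order of replicate numbers in both groups, and the groups overlapped over nearly their whole range. In replicate 3 Egr1 took 0.768% of all counts of the Pulsed library and 0.980% of those of the Mettl3-RNP library. Per kb of exon it then ranked 15th and 12th among protein-coding genes, whereas it ranked 4744th in Pulsed 4 and 1109th in Mettl3-RNP 4. Cells described as resting thus held Egr1 anywhere from the front rank of messages to the middle of the expressed genes.

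**Figure D1:**
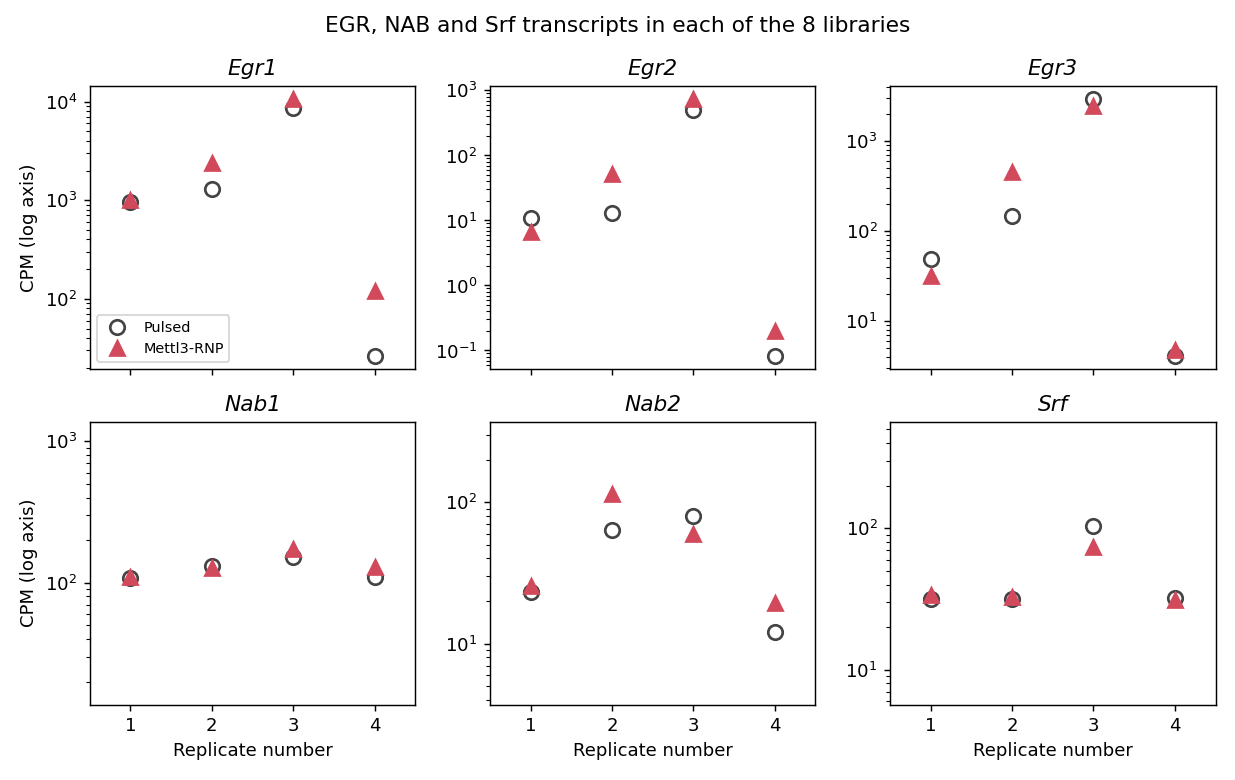
Levels of the 6 transcripts in CPM (log axis) against the replicate number, with 1 point for each library, open circles for Pulsed and triangles for Mettl3-RNP. The panels of Egr1, Egr2 and Egr3 span several orders of magnitude with a peak at replicate 3 and a trough at replicate 4, Srf stands out in replicate 3 alone, and Nab1 stays between 109 and 175 CPM.

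Egr2 (ENSMUSG00000037868, chr10:67371305-67378018, plus strand), which represses T cell activation and directs myelination in other cell types, showed the widest swing. Its levels in replicates 1 to 4 were 11.1, 13.3, 509 and 0.0822 CPM in Pulsed cells and 6.59, 52.2, 746 and 0.20 CPM in Mettl3-RNP cells. Group means were 133 ± 250 CPM in Pulsed and 201 ± 364 CPM in Mettl3-RNP cells (SD, n = 4), so that the spread within a group exceeded its mean. The values for replicate 4 rest on 3 and 7 counts. Pulsed 3 exceeded Pulsed 4 by 6190 times, with a 95% Poisson interval from 2120 to 30000 that covers the counting error of replicate 4 only. In Mettl3-RNP cells the same ratio was 3740 (1820 to 9310).

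Egr3 (ENSMUSG00000033730, chr14:70314350-70320063, plus strand), a close relative of Egr2 that is induced with it in activated lymphocytes, lay between Egr1 and Egr2. Pulsed cells held 48.4, 146, 2947 and 4.08 CPM in replicates 1 to 4, and Mettl3-RNP cells 31.3, 452, 2443 and 4.82 CPM (means 786 ± 1441 and 733 ± 1159, SD, n = 4). Replicate 3 exceeded replicate 4 by 722 times in Pulsed and 507 times in Mettl3-RNP cells. Like Egr1 and Egr2, it followed the order 3, 2, 1, 4 from high to low in both groups. The order of replicates 3, 2, 1 and 4 occurred in both groups for 2.32% of the tested genes.

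Egr4 (ENSMUSG00000071341, chr6:85485678-85490675, minus strand) was close to absent outside replicate 3. It had 381 counts in Pulsed 3 and 240 in Mettl3-RNP 3, or 9.47 and 8.03 CPM, while the other 6 libraries held at most 10 counts. Both libraries of replicate 4 had 0 counts, which allows up to 0.082 CPM in Pulsed 4 and 0.086 CPM in Mettl3-RNP 4, taking 3 counts per library as the limit. Replicate 3 was thus at least 115-fold higher than replicate 4 in Pulsed and at least 93.9-fold higher in Mettl3-RNP cells. Exons of Gm67895 on the opposite strand overlap Egr4 by 1011 bases, and the strand setting of the counting is not given in the sources used here.

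The NAB corepressors moved far less, and not in the same way as each other. Nab1 (ENSMUSG00000002881, chr1:52494147-52539838, minus strand) is widely expressed, and its levels in replicates 1 to 4 were 109, 131, 152 and 110 CPM in Pulsed and 110, 127, 175 and 130 CPM in Mettl3-RNP cells (means 125 ± 20.3 and 135.5 ± 27.6, SD, n = 4). It was highest in replicate 3 of both groups, by a small margin. Nab2 (ENSMUSG00000025402, chr10:127496786-127504458, minus strand), the inducible corepressor, had 23.3, 63.8, 80.1 and 12.1 CPM in Pulsed and 25.7, 114, 59.4 and 19.3 CPM in Mettl3-RNP cells (means 44.8 ± 32.4 and 54.6 ± 43.3). Nab2 was thus lowest in replicate 4 of both groups, as were the EGR genes, but in Mettl3-RNP cells its peak was in replicate 2 and not in replicate 3. Replicate 3 exceeded replicate 4 by 1.38 times for Nab1 and 6.63 times for Nab2 in Pulsed cells, against 329 times for Egr1. In Mettl3-RNP cells these ratios were 1.34, 3.07 and 89.2. Exons of genes on the opposite strand, the neighbouring Stat6 among them, overlap the 4663 exon bases of Nab2. The overlaps sum to 1778 bases, where a base shared by several of those genes counts for each. The counts of Nab2 may thus include reads of those genes.

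Srf (ENSMUSG00000015605, chr17:46857767-46867119, minus strand) encodes a factor known to bind CArG boxes, the motif that matched at 2 places of its own promoter. Levels in replicates 1 to 4 were 31.9, 31.4, 104 and 32.0 CPM in Pulsed and 33.9, 32.7, 73.1 and 30.9 CPM in Mettl3-RNP cells (means 49.8 ± 36.2 and 42.7 ± 20.4, SD, n = 4). The 6 libraries of replicates 1, 2 and 4 lay within 30.9 to 33.9 CPM, and both libraries of replicate 3 were higher. In replicate 4, where the EGR genes were lowest, Srf thus stood near its level in replicates 1 and 2. Replicate 3 exceeded replicate 4 by 3.26 times in Pulsed and 2.37 times in Mettl3-RNP cells.

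To ask how depletion of Mettl3 relates to this family, each Mettl3-RNP library was set against the Pulsed library of the same number. None of the 6 genes met the call rule given above in edgeR with the replicate number as a block, while 308 of all tested genes did (2.06%). At the adjusted p alone none passed, beside 3.74% of all genes. Nor was any called in DESeq2 (3.38% of all genes) or limma-voom (2.32%), while Egr1 (0.85) and Egr2 (0.70) were called in edgeR where every gene with at least 1 count was tested (1.72% of 33650 genes). At an unadjusted p under 0.05 in edgeR, there was 1 of the 6, Egr1, beside 22.5% of all tested genes. Since the genes were chosen with this comparison known, nothing is read from these counts. The study names Egr1 among methylated transcripts that differed upon Mettl3 depletion, most of them upregulated. Its rule was a p value of at most 0.05 and at least a 1.5-fold change, applied to values corrected for a batch, unlike those used here.

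Egr1 was higher in 4 of 4 Mettl3-RNP libraries than in their Pulsed partners, by 0.06, 0.90, 0.31 and 2.19 on the log2 scale for replicate numbers 1 to 4. Its log2 fold change was 0.83 (SE 0.305). That value was 0.43 without replicate 4, in which Egr1 was lowest, and 1.07 without replicate 1. Of all tested genes, 15.7% were higher in 4 of 4 pairs. For Egr2 the differences were -0.74, 1.97, 0.55 and 0.90, with a log2 fold change of 0.67 (SE 0.401). This fold change came to 0.02 without replicate 2 and to 1.21 without replicate 1. For Egr3 the differences were -0.63, 1.63, -0.27 and 0.24, with a log2 fold change of 0.23 (SE 0.338). It turned to -0.28 without replicate 2 and came to 0.53 without replicate 1. Pair 1 was thus lower and pair 2 higher for both Egr2 and Egr3.

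The corepressors and Srf follow. Nab1 had log2 differences of 0.02, -0.04, 0.20 and 0.24 (log2 fold change 0.11, SE 0.0752). Nab2 had 0.15, 0.83, -0.43 and 0.68 (0.30, SE 0.193), and its log2 fold change was 0.56 without replicate 3 and 0.11 without replicate 2. Srf had 0.09, 0.06, -0.51 and -0.05 (-0.11, SE 0.108), and its log2 fold change was 0.03 without replicate 3 and -0.20 without replicate 1. In pair 3 Nab2, Srf and Egr3 were lower in the Mettl3-RNP library, while Egr1, Egr2 and Nab1 were higher. The SD of the 4 paired differences was 0.95 for Egr1, 1.12 for Egr2 and 0.99 for Egr3, and 0.14 for Nab1, where the median tested gene had 0.25.

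**Figure D2:**
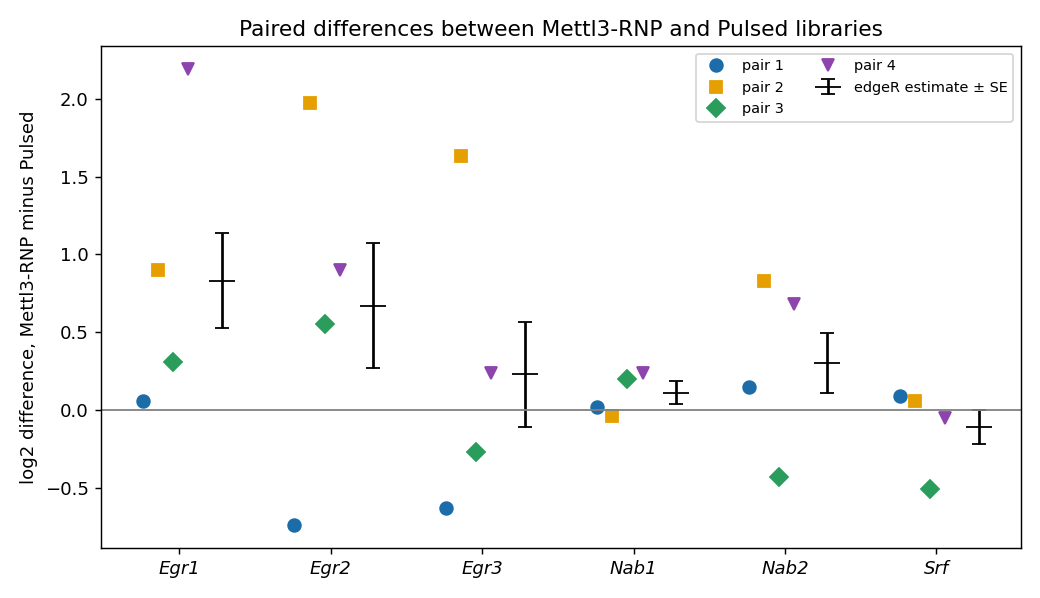
Log2 difference between the Mettl3-RNP and the Pulsed library of each replicate number (1 symbol for each pair) and the edgeR log2 fold change with its standard error (black bar) for the 6 genes. Egr1 lies at or above 0.06 in each pair, Egr2 ranges from -0.74 to 1.97, and Nab1 stays within -0.04 to 0.24.

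Variation between the replicate numbers was larger than the differences between the groups. The test of the replicate term in edgeR called 6 of 6 genes, with adjusted p from 8.42e-05 for Egr3 to 0.00976 for Nab1, beside 53.9% of all tested genes. The high level of immediate early genes in replicate 3 was known when the genes were chosen, so this count is not independent support. On the log2 CPM scale the highest and the lowest replicate number differed by 11.69 for Egr2, 9.22 for Egr3 and 7.42 for Egr1. The median tested gene had a range of 0.87, and by this range Egr2, Egr3 and Egr1 ranked 1st, 3rd and 7th among the 14942 genes. Nab2 had a range of 2.48, Srf of 1.47 and Nab1 of 0.57. The replicate number accounted for 95.3% of the sum of squares of Egr1 in log2 CPM and the group for 2.47%. Medians over all tested genes were 78.3% and 5.68%. The replicate number enters with 3 coefficients and the group with 1, so these shares are not on equal terms.

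The libraries behind this variation differed between genes. With both libraries of replicate 3 left out, the ranges of Egr1, Egr2 and Egr3 were still 4.96, 7.15 and 5.84, and 4 of 6 genes were called, beside 27.2% of all genes in that fit. Srf then had a range of 0.07 (adjusted p = 0.938 in edgeR), and Nab1 one of 0.24 (adjusted p = 0.109 in edgeR). With both libraries of replicate 4 left out, the ranges of Egr1, Egr2 and Egr3 were 3.29, 6.16 and 6.11, and 6 of 6 genes were called, beside 44.5%. The call of Srf thus rested on replicate 3, Nab2 kept its range of 2.48 without replicate 3, and the EGR genes varied through both ends. Nab1 also lost its call without replicate 1 (adjusted p = 0.128 in edgeR) and when libraries were scaled by their size alone (0.0783).

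**Figure D3:**
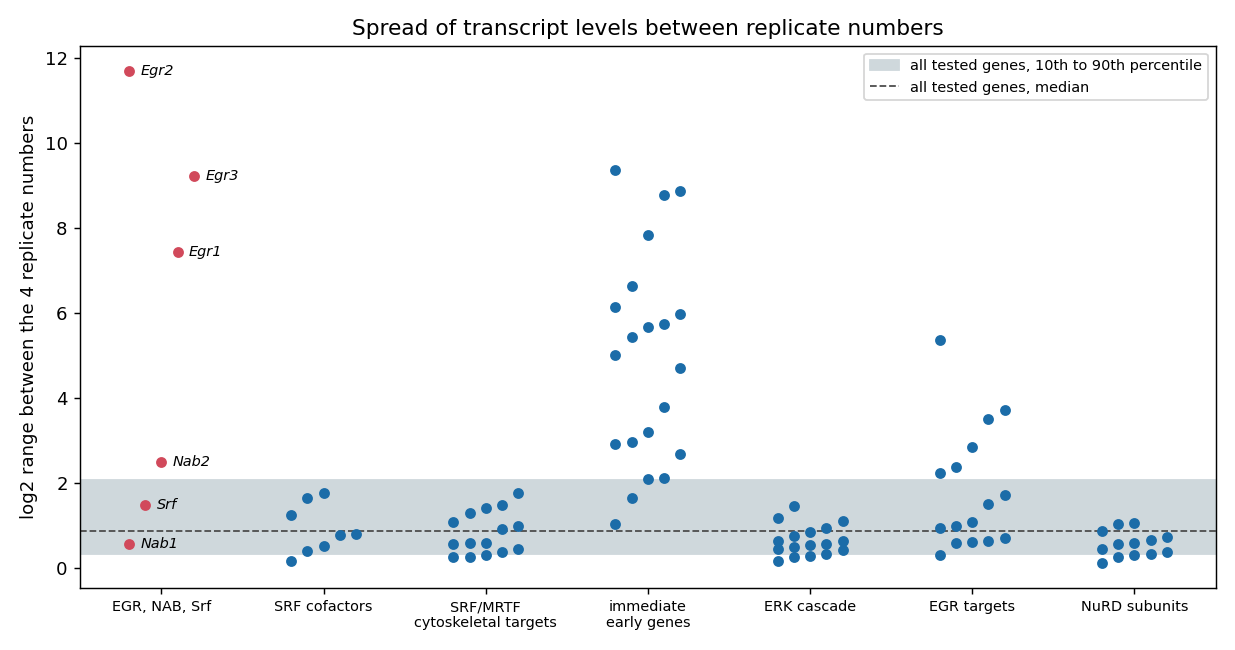
Range of the mean log2 CPM between the highest and the lowest of the 4 replicate numbers for each tested gene of 7 lists, with the 10th to 90th percentile (0.32 to 2.06, shaded) and the median (0.87, dashed) of all tested genes. Egr2, Egr3 and Egr1 lie far above the band, most immediate early genes lie above it, Nab2 lies just above it, and Srf, Nab1, the SRF cofactors, ERK cascade and NuRD subunits lie inside or below it.

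The other immediate early genes were examined in the same way. All 21 genes of this list were tested, and 20 varied between replicate numbers (95.2%, beside 53.9% of all tested genes) with a median range of 5.01. The 4 with a range above the 7.42 of Egr1 encode transcription factors, Fosb (9.35), Nr4a1 (8.87), Fos (8.76) and Atf3 (7.84), and were picked out after their values had been seen. At the low end Mcl1 had a range of 1.03 and Klf6 one of 1.63, and Klf2 was highest in replicate 1 or 2 and not in replicate 3. The level was highest in replicate 3 and lowest in replicate 4 in both groups for 14 of the 21 genes, as it was for Egr1, Egr2 and Egr3, and for 6.5% of all tested genes. In the Mettl3 comparison none of the 21 passed in edgeR, beside 2.06% of all tested genes, and 4 had an unadjusted p under 0.05, beside 22.5%, and the median log2 fold change was 0.14, against -0.0013 for all tested genes.

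Levels of activators and corepressors were compared per kb of exon. Summed over Egr1, Egr2 and Egr3, the EGR transcripts exceeded the sum of Nab1 and Nab2 by 11.2, 9.99 and 70.1 times in Pulsed 1 to 3 and by 11, 15.2 and 83.5 times in Mettl3-RNP 1 to 3. In replicate 4 the ratio was 0.372 in Pulsed and 1.24 in Mettl3-RNP cells. The corepressor transcripts thus outnumbered those of their partners in Pulsed 4 alone. Egr1 supplied 71.3% to 96.3% of the EGR sum in the 8 libraries, with the lowest shares in replicate 3, where Egr2 and Egr3 were highest. Nab1 exceeded Nab2 in 7 of 8 libraries, by 1.24 to 5.99 times, and fell below it in Mettl3-RNP 2, with a ratio of 0.734.

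**Figure D4:**
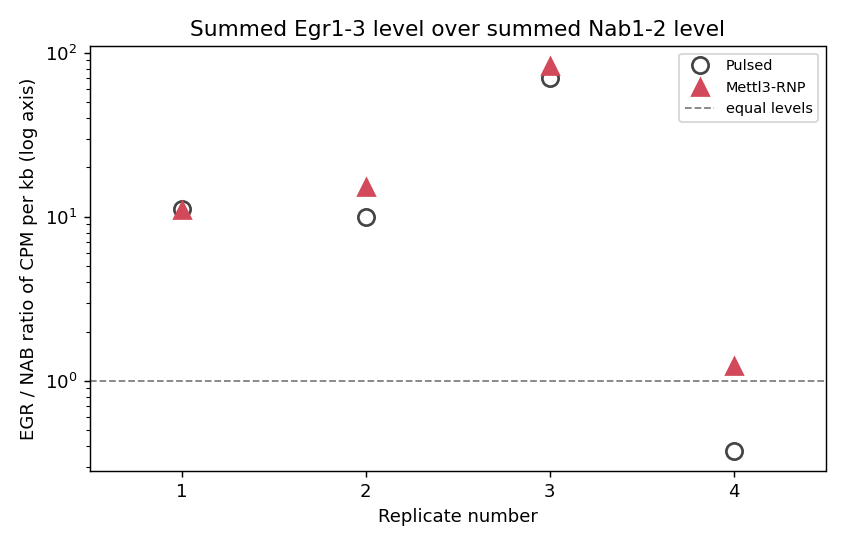
Ratio of the summed Egr1, Egr2 and Egr3 level to the summed Nab1 and Nab2 level, in CPM per kb of exon (log axis), for each library against the replicate number, with a dashed line at equal levels. The ratio is 70.1 and 83.5 in replicate 3 and lies at 0.372 and 1.24 in replicate 4.

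Across the 8 libraries, Pearson's r of log2 CPM was 0.98 between Egr1 and Egr2, 0.98 between Egr2 and Egr3 and 0.95 between Egr1 and Egr3. Nab2 correlated with the EGR genes at 0.82 to 0.87, Srf at 0.69 to 0.79 and Nab1 at 0.68 to 0.77. The value was 0.47 between Nab2 and Srf, 0.78 between Nab1 and Srf and 0.61 between Nab1 and Nab2. These values describe 4 pairs of libraries that differ mainly by replicate number. Among the 8300 other protein-coding genes that averaged 10 CPM or more, the transcripts most like Egr1 were Junb (r = 0.987), Ier2 (0.983) and Fos (0.977), all immediate early genes. Egr2 was most like Btg2 (0.992), Klf6 (0.990) and Ptk2b (0.986), of which Btg2 and Klf6 are in the immediate early list, and Egr3 was most like Spns2 (0.998), Csrnp1 (0.992) and Pstpip1 (0.988). The closest to Nab2 were Tmem51 (0.955), Ptpn1 (0.945) and Git1 (0.942), none of them in the immediate early list. Nab1 was most like Dnttip1 (0.984), Hes1 (0.981) and Cebpb (0.979), and Srf was most like Tomm34 (0.996), Setd1a (0.994) and Zdhhc4 (0.992). As many as 638 genes had an r above 0.9 with Srf, 327 with Nab1, 220 with Egr3, 177 with Egr2, 113 with Egr1 and 23 with Nab2. A high r was thus common over these 8 libraries, least so for Nab2.

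The genes around this family were examined by lists. None of the genes in the lists of SRF cofactors (8 tested of 8), ERK cascade (17 of 17), EGR targets (16 of 18) and NuRD subunits (13 of 13) passed the call rule between the groups in edgeR, beside 2.06% of all tested genes. At an unadjusted p under 0.05 there were 3, 8, 4 and 3 genes in these lists, beside 22.5% of all tested genes. Median log2 fold changes were 0.13, -0.03, 0.06 and -0.12. Tnf, a cytokine gene that EGR1 can activate, had the highest fitted difference of the EGR targets (1.36, SE 0.496, adjusted p = 0.154 in edgeR) and was called without replicate 1 (1.90, adjusted p = 0.0388 in edgeR) and where every gene with at least 1 count was tested (1.35). It was chosen for mention after its values had been seen. The NuRD complex contains Chd4, through which NAB2 represses, and Chd4 was at 320 to 576 CPM with a log2 fold change of -0.04 (SE 0.0712).

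The order of replicates 3, 2, 1 and 4 was present in both groups for 0 of 8 SRF cofactors, 0 of 17 ERK cascade genes, 1 of 16 EGR targets and 7 of 21 immediate early genes, beside 2.32% of all tested genes. Replicate 3 was highest and replicate 4 lowest in both groups for 0, 2, 5 and 14 genes of these lists, beside 6.5%. Median ranges between replicate numbers were 0.78 for SRF cofactors, 0.57 for the ERK cascade and 1.28 for EGR targets. Of 22 cytoskeletal genes known as targets of SRF and its cofactors of the MRTF family, 15 were tested and 11 varied between replicate numbers, beside 53.9% of all tested genes, with a median range of 0.59, against 0.87 over all tested genes. Tagln2 was lower in 4 of 4 Mettl3-RNP libraries (log2 fold change -0.35, SE 0.072, adjusted p = 0.0443 in edgeR), short of the fold limit, and no other gene of the 6 pathway lists passed an adjusted p of 0.05. Among the mast cell markers, 9 of 10 varied between replicate numbers, again beside 53.9%, with a median range of 0.76 against 0.87. Ms4a2 and Mitf were lowest in replicate 3 of both groups, and Gata2 followed the order 3, 2, 1, 4. The part of these differences in the levels of the EGR genes was not tested.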

How the data were processed

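Total RNA was enriched for poly-A mRNA and sequenced as paired-end reads (Tecan Revelo libraries). Per the labels and the study's methods, the authors checked reads with FastQC 0.11.9, aligned them with HISAT2 2.2.1 to GRCm39 and counted them with featureCounts 2.0.1. Each library has 1 deposited table of raw counts (whole numbers, not normalized) by Ensembl gene. The batch correction described by the study was not applied to the values used here, and strand settings are not given in the sources used here.

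IDs were named with GENCODE release M39 (GRCm39), which matched 98.7% of them. Genes passing filterByExpr (about 10 counts in 4 libraries) were fitted with TMM scaling and the quasi-likelihood test of edgeR 4.0.16 in R 4.3.3, with group and replicate number as terms and Benjamini-Hochberg adjustment over all tested genes. A call needed an adjusted p at or below 0.05 and at least a 1.5-fold difference. A second test asked whether the 3 replicate coefficients differed from 0. DESeq2 1.42.0, limma-voom 3.58.1, other scalings and filters, and each pair left out were run as alternatives. A prior count of 2 went into log2 CPM. The edgeR comparison of the groups was tested on simulated counts.

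Same-numbered libraries deviated together from their group means (r of 0.825, 0.489, 0.879 and 0.765 for pairs 1 to 4 over 11985 genes, against at most 0.183 for different numbers), and the series names 4 mice. That a number marks a mouse is an inference, and p-values measure the spread between these libraries. The lowest chi-square per degree of freedom between libraries of a group was 52.6, more than repeated sequencing of 1 library would give. Each library counted as 1 replicate, but this value cannot tell separate cultures from separate preparations of 1 culture. The depth of at least 32643260 counts limits low transcripts only, and intervals cover counting error only, since no molecular identifiers are named.

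The genes and lists were chosen with earlier results of these data known. Named genes are the 6 members, Egr4, Mettl3, list genes past the call rule with a mean of at least 1 CPM, and for each member the 3 protein-coding genes with the highest r. Further genes of the lists and markers are named as examples, some of them after their values had been seen.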

Additional observations from a re-analysis of the deposited data

Results flagged for a closer look

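In 16 groups of 4 libraries (8 genes in both groups), 9 had a library far apart from the other 3, and all 9 were libraries of replicate 3. Chance sets apart about 1 in 20 such groups, but the genes were chosen with the high levels of replicate 3 known, so the count is a description and no test. In Pulsed 3 these were Egr1 at 8660 CPM, Egr2 at 509 CPM, Egr3 at 2950 CPM, Srf at 104 CPM and Egr4 at 9.47 CPM, each above the other Pulsed libraries, and Mettl3 at 11.2 CPM, below them. In Mettl3-RNP 3 they were Egr2 at 746 CPM, Srf at 73.1 CPM and Egr4 at 8.03 CPM, each above the other libraries of the group. The EGR genes and Srf are high together in these libraries, so these values are not independent of each other. The cause was not tested.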

How the results depend on the processing

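None of the 6 genes was called with another scaling, in DESeq2, in limma-voom, with no replicate block, with at least 10 counts in every sample (Egr2 was not tested there) or without any 1 pair. When every gene with at least 1 count was tested, 2 were called, Egr1 and Egr2, as were 1 immediate early gene (Klf2), 1 EGR target (Tnf) and 579 of 33650 genes in all (1.72%). Over all genes, the count of 308 became 505 in DESeq2, 559 at an adjusted p of 0.05 alone (1 SRF target, Tagln2, among them) and 0 with no replicate block. The spread between replicate numbers then enters the error. Leaving out 1 pair gave 26 to 331 genes, lowest without replicate 2, 0 to 1 immediate early gene (Dusp1, without replicate 4), 0 to 1 EGR target (Tnf, without replicate 1) and 4053 to 7910 genes varying between replicate numbers, lowest without replicate 3 and 5236 without replicate 1, against 8048 with all pairs. Leaving out 1 pair, log2 fold changes ranged from 0.43 to 1.07 for Egr1, 0.02 to 1.21 for Egr2, -0.28 to 0.53 for Egr3, 0.07 to 0.15 for Nab1, 0.11 to 0.56 for Nab2 and -0.20 to 0.03 for Srf. With no replicate block, Egr3 was at -0.10 and Egr1 at 0.38. Nab1 was not called as varying between replicate numbers with library size alone (adjusted p = 0.0783 in edgeR), with every gene tested (0.132) or without replicate 1 or 3, and Srf without replicate 3. With every gene tested, the replicate term of Egr1 had an adjusted p of 6.41e-281 in edgeR, far below its value in the other fits, so the calls of that fit stand apart from the rest. Where no construction of the alternative explains a change, the cause was not tested.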
